A study of Mus musculus with 8 samples.

Results

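Nnt and 5 further genes of the mitochondrial NADPH and thiol system (Idh2, Txn2, Txnrd2, Prdx3 and Glrx2) were examined in RNA of pancreatic islets. The members were all probe sets that the platform annotation assigns to one of these 6 genes, which gave 16 of the 45037 probe sets that are not array controls. The tissue came from the inbred strains AKR/J and C57Bl/6J, and animals of both strains had eaten a high-fat diet for 3 months, so no group on another diet enters the comparison. Each strain had 4 samples, each of them combining 2 mice and run on its own Affymetrix array, with AKR/J on arrays 1 to 4 and C57Bl/6J on arrays 5 to 8. The labels give neither age nor sex, and a p-value here measures the spread between pools. In these bulk samples, fewer cells of a type and less RNA per cell cannot be told apart.

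Mitochondria remove hydrogen peroxide through thiol proteins that are kept reduced by NADPH. Nicotinamide nucleotide transhydrogenase, the Nnt protein, uses the proton gradient of the inner membrane to make NADPH in the matrix, and isocitrate dehydrogenase 2 (Idh2) makes it from isocitrate. Thioredoxin reductase 2 (Txnrd2) passes these electrons to thioredoxin 2 (Txn2), which reduces peroxiredoxin 3 (Prdx3), while glutaredoxin 2 (Glrx2) removes glutathione from protein thiols. The C57BL/6J strain is known for a deletion of several internal exons of Nnt that leaves it without the functional protein.

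Values are log2 of the deposited intensity, and every difference is AKR/J minus C57Bl/6J on that scale. A probe set was tested when its signal was called detected on at least 4 of the 8 arrays, and it was called when limma's p-value, adjusted by Benjamini-Hochberg over all 20772 tested probe sets, was under 0.05. Of the 16 member probe sets 12 were tested, 11 of which were detected on all 8 arrays. The remaining 4 (1 of Nnt and 3 of Txnrd2) were not detected on any array of either strain. Of the 12 tested, 2 were called, both of them for Glrx2 and both higher in AKR/J. This is 16.7%, beside 14.3% of all tested probe sets (6.59% higher and 7.7% lower in AKR/J), so the share among the members was close to that of the array as a whole. The strains did not overlap for 4 of the 12, beside 22.9% of all tested probe sets. Within both strains, arrays 1, 2, 5 and 6 lay apart from arrays 3, 4, 7 and 8 on the first principal component of the deviations from the strain means, which held 33.1% of their variance. No label names a batch, and each side holds 2 arrays of each strain. With this split as a term in the fit, added after seeing the data, both called Glrx2 probe sets passed (adjusted p = 0.0129 and 0.0422) and no other member did. The median size of the difference was 0.21 among the 12 and 0.18 among all tested probe sets.

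**Figure D1:**
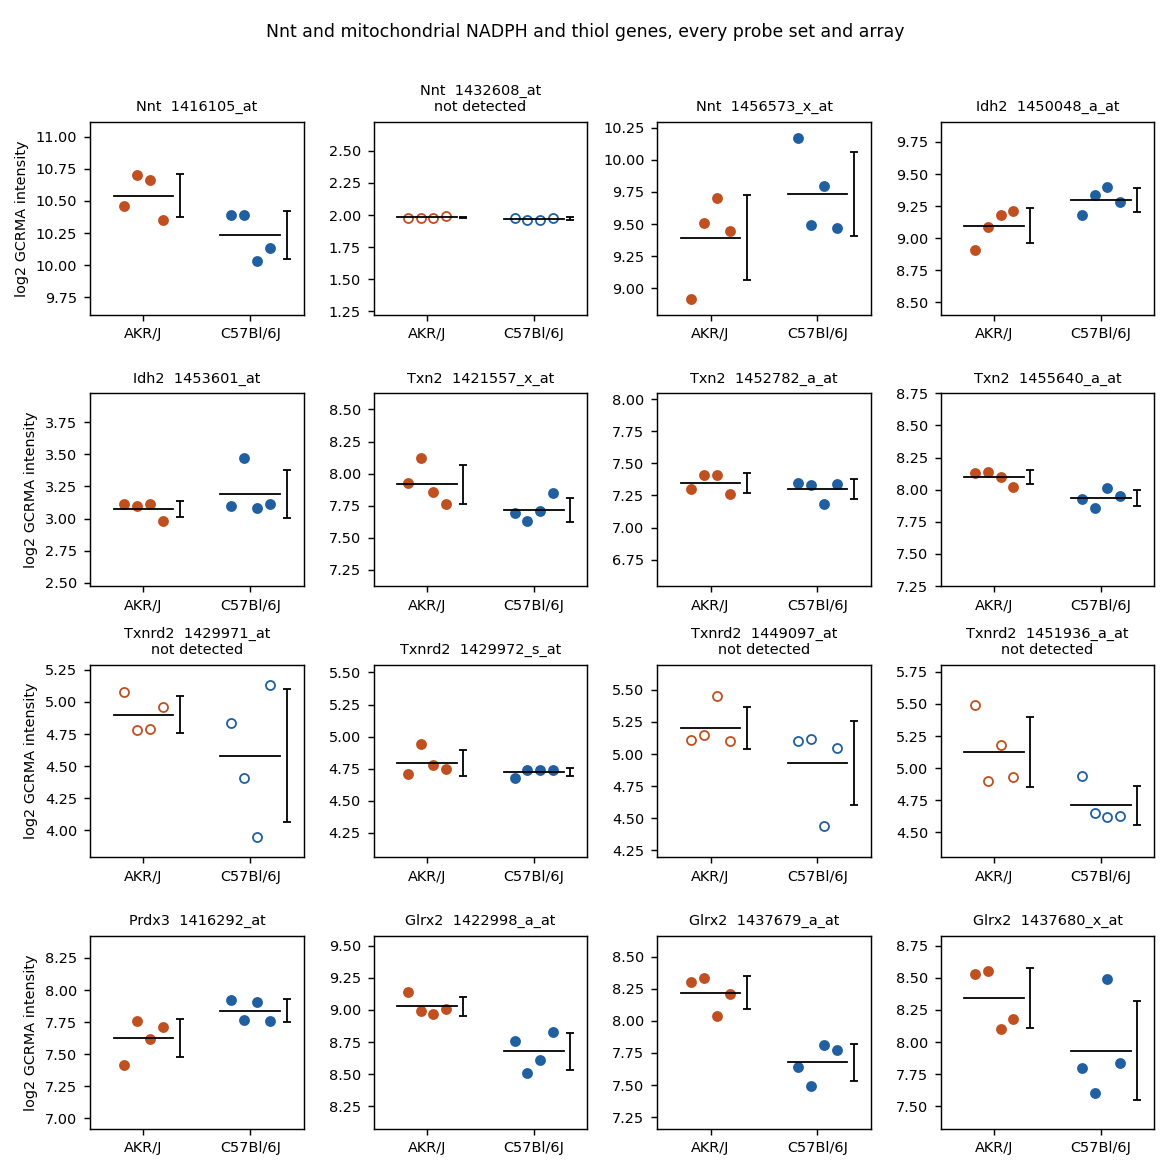
Log2 GCRMA intensity (vertical axis, each panel spanning 1.5 log2 units) of all 16 probe sets by strain, AKR/J left and C57Bl/6J right; points are arrays in array order, lines are means and bars are SD (n = 4). Open circles mark the 4 probe sets not detected on any array; the AKR/J and C57Bl/6J points of the first 2 Glrx2 panels are separate.

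Nnt RNA was readily measured in both strains, and no strain difference in it passed the test. The brightest Nnt probe set, 1416105_at, read 10.46, 10.70, 10.66 and 10.35 on the AKR/J arrays, and 10.39, 10.39, 10.03 and 10.13 on the C57Bl/6J arrays. The ranges overlapped, since AKR/J array 4 lay below C57Bl/6J arrays 5 and 6. AKR/J averaged 10.54 ± 0.17 and C57Bl/6J 10.23 ± 0.19 (SD, n = 4 each), a difference of 0.31, or 1.24-fold. Its 95% confidence interval was 0.03 to 0.58, with a limma adjusted p of 0.127, and by size 68.9% of the tested probe sets differed less.

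A second Nnt probe set, 1456573_x_at, had a difference of the opposite sign that did not pass either. It read 8.92, 9.51, 9.70 and 9.45 in AKR/J and 10.17, 9.49, 9.80 and 9.47 in C57Bl/6J. These ranges overlapped as well, with AKR/J array 1 the lowest and C57Bl/6J array 5 the highest of the 8. The difference was -0.34 (95% confidence interval -0.82 to 0.14, limma adjusted p = 0.321). The suffix _x_at marks a probe set in which some probes can also bind other transcripts. The third, 1432608_at, lay between 1.98 and 1.99 for AKR/J and, for C57Bl/6J, between 1.96 and 1.98, and was detected on 0 of the 8 arrays, so no fold is given for it.

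Within each array, the value of 1416105_at minus that of 1456573_x_at was 1.54, 1.19, 0.96 and 0.90 in AKR/J and 0.22, 0.91, 0.22 and 0.66 in C57Bl/6J. The strains overlapped, since AKR/J array 4 (0.90) lay just below C57Bl/6J array 6 (0.91), and the other AKR/J arrays lay above all of C57Bl/6J. AKR/J had a mean gap of 1.15 ± 0.29 and C57Bl/6J one of 0.50 ± 0.34 (SD, n = 4 each), which differ by 0.64 (two-sided exact permutation p = 0.0571 over 70 assignments, where the smallest possible is 0.0286). With the MAS5-type signals, which summarise the same arrays in another way, the gap differed by 0.63 and the exact permutation p was 0.0286. This comparison was chosen after the values were seen. With the mean of both detected probe sets standing for the gene, the Nnt difference was -0.02 (limma adjusted p = 0.954).

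**Figure D2:**
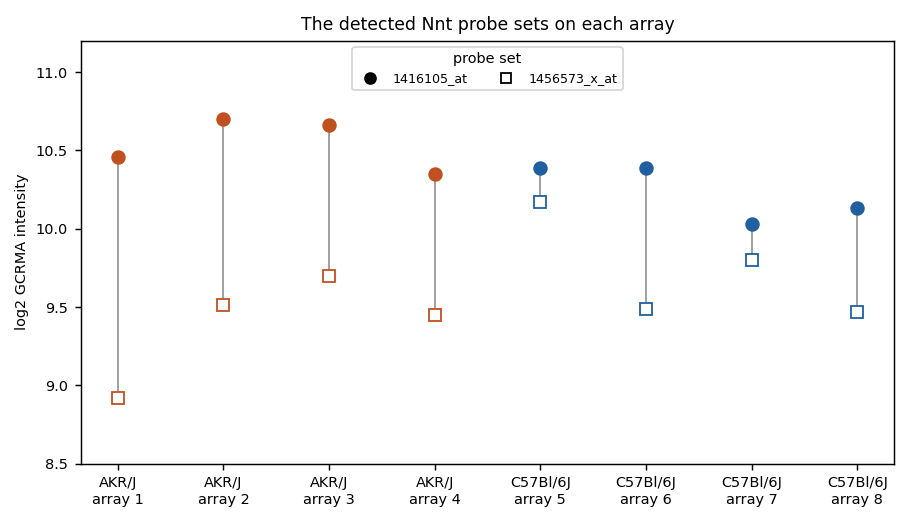
Log2 GCRMA intensity (vertical axis) of the 2 detected Nnt probe sets on each array, AKR/J arrays 1 to 4 on the left and C57Bl/6J arrays 5 to 8 on the right; grey lines join the probe sets of an array. The gap is 0.90 to 1.54 for AKR/J against 0.22 to 0.91 for C57Bl/6J.

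The files and tables used do not place the probes of these sets relative to the deleted exons. A probe set outside the deleted part reads the shortened transcript too and does not check for the deletion, so the Nnt values neither show nor exclude that allele in these mice. Nor can a strain variant within a probed stretch be told apart from a change in RNA amount.

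The genes that neighbour Nnt in the RefSeq gene order were also measured. On one side, Fgf10 was detected on only 1 AKR/J array and on no C57Bl/6J array, and 1700003P14Rik was not detected on any array. The mitochondrial ribosomal protein gene Mrps30 averaged 7.04 ± 0.09 for AKR/J against 7.29 ± 0.12 for C57Bl/6J (SD, 4 arrays each). Its difference was -0.25 (limma adjusted p = 0.0791). The Mrps30 ranges did not overlap. On the other side, the translation factor gene Paip1 differed by -0.31 (adjusted p = 0.167) by its 1 tested probe set. The 4 tested probe sets of 4833420G17Rik differed by -0.38 to 0.08. The gene 3110070M22Rik differed by 0.44 (adjusted p = 0.165), by a dim probe set detected on 4 AKR/J arrays but only 1 C57Bl/6J array. No tested probe set of these neighbours passed (adjusted p of at least 0.0791).

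The 5 genes whose pattern over the 8 arrays lay nearest to that of 1416105_at were Cog1, a Golgi tethering subunit, Tubgcp4 of the gamma-tubulin complex, the glucosyltransferase gene Alg10b, the kinase gene Riok3 and Plat, tissue plasminogen activator. Their Euclidean distances, on log2 values centred on each probe set's mean, were 0.19 to 0.25, beside a median of 0.84 over the 18489 tested probe sets annotated with 1 gene symbol, without those of Nnt. They were chosen for this likeness, so the steps between arrays that they share with 1416105_at are no separate result. None of these 5 passed the test (adjusted p between 0.13 and 0.311).

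No Idh2 difference passed the test. Its bright probe set, 1450048_a_at, read 8.91, 9.09, 9.18 and 9.21 in AKR/J and 9.18, 9.34, 9.40 and 9.28 in C57Bl/6J. The ranges met at AKR/J array 4 and C57Bl/6J array 5, and the difference was -0.20 (95% confidence interval -0.41 to 0.00, limma adjusted p = 0.172). On the MAS5-type scale, after quantile normalization, it was 0.02 (adjusted p = 0.932). The dim probe set 1453601_at covered 2.98 to 3.11 on AKR/J arrays, 3 of which detected it, and 3.08 to 3.47 on C57Bl/6J arrays, of which 4 did (difference -0.12, adjusted p = 0.478).

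Txn2, the thioredoxin of mitochondria, had 3 tested probe sets, and each was slightly brighter in AKR/J without passing. The values of 1455640_a_at were 8.13, 8.14, 8.10 and 8.02 in AKR/J and 7.93, 7.86, 8.01 and 7.95 in C57Bl/6J. All AKR/J arrays lay above all C57Bl/6J arrays, though by only 0.01 at the nearest pair, and the difference was 0.16 (95% confidence interval 0.01 to 0.30, limma adjusted p = 0.134). The MAS5-type signals gave -0.07 for it (adjusted p = 0.746). The other probe sets differed by 0.19 (1421557_x_at, adjusted p = 0.205) and 0.04 (1452782_a_at, adjusted p = 0.731), and their ranges overlapped. On MAS5-type signals these differed by 0.22 (adjusted p = 0.448) and 0.26 (adjusted p = 0.329). The upper limits of the 3 intervals were 0.20 to 0.41 with GCRMA values and 0.21 to 0.62 with MAS5-type signals.

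Txnrd2, the selenoprotein reductase that serves Txn2, was near the limit of detection. Only 1429972_s_at of its 4 probe sets was detected, at 4.71, 4.94, 4.78 and 4.75 in AKR/J and 4.68, 4.74, 4.74 and 4.74 in C57Bl/6J. Its ranges overlapped and the difference was 0.07 (95% confidence interval -0.09 to 0.23, limma adjusted p = 0.531). The probe sets 1429971_at, 1449097_at and 1451936_a_at averaged 4.90, 5.20 and 5.13 in AKR/J and 4.58, 4.93 and 4.71 in C57Bl/6J, were not detected on any array, and have no fold. The strain comparison of Txnrd2 therefore rests on 1 dim probe set, in which small changes can be compressed. In AKR/J its mean of 4.80 lay below those of the 3 undetected probe sets.

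Prdx3, the peroxidase of the thioredoxin branch, passed the test with the MAS5-type signals and not with the GCRMA values. Its only probe set, 1416292_at, read 7.42, 7.76, 7.62 and 7.71 in AKR/J and 7.92, 7.77, 7.91 and 7.76 in C57Bl/6J. The strains did not overlap, although AKR/J array 2 and C57Bl/6J array 8 agreed to the second decimal. The difference of -0.21 (95% confidence interval -0.42 to -0.01) did not pass (limma adjusted p = 0.155). As MAS5-type signals the same arrays read 8.15, 8.33, 8.27 and 8.45 in AKR/J and 9.10, 8.92, 9.25 and 8.79 in C57Bl/6J. There the arrays of the strains were well apart and the difference was -0.72 (95% confidence interval -1.01 to -0.42, adjusted p = 0.00982), that is 1.65-fold lower in AKR/J. On those signals 10.9% of all tested probe sets were called. The detection p of this probe set was 0.0239 to 0.0303, within the threshold of 0.05 on every array but far above that of Nnt 1416105_at (0.000244 on every array).

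Glrx2 was the only member gene with a called probe set in the GCRMA values, and all 3 of its probe sets were brighter in AKR/J. The probe set 1437679_a_at read 8.30, 8.33, 8.04 and 8.21 in AKR/J and 7.64, 7.49, 7.81 and 7.77 in C57Bl/6J. Each AKR/J array was above each C57Bl/6J array. AKR/J averaged 8.22 ± 0.13 and C57Bl/6J 7.68 ± 0.15 (SD, n = 4 each), a difference of 0.54 (SE 0.10), or 1.46-fold with a 95% confidence interval of 1.25-fold to 1.71-fold (limma adjusted p = 0.00939). It passed in every one of the 16 alternative settings that were run, with adjusted p between 0.00698 and 0.0449. In size it exceeded 87.0% of the tested probe sets, so it was not among the extreme differences of these arrays.

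The brightest Glrx2 probe set, 1422998_a_at, read 9.14, 8.99, 8.97 and 9.01 in AKR/J and 8.76, 8.51, 8.61 and 8.83 in C57Bl/6J. Again the strains did not overlap, and the difference was 0.35 (SE 0.09), or 1.27-fold (limma adjusted p = 0.0356). The call did not hold on MAS5-type signals (adjusted p = 0.132), with every probe set tested (0.061) or when any single array except C57Bl/6J array 8 was left out (up to 0.0905). The third, 1437680_x_at, read 8.53, 8.55, 8.10 and 8.18 in AKR/J and 7.80, 7.60, 8.49 and 7.84 in C57Bl/6J. Here C57Bl/6J array 7 lay among the AKR/J arrays and the difference of 0.40 did not pass (adjusted p = 0.22). Without that array it was 0.59 and passed (adjusted p = 0.0382). The mean of the 3 probe sets differed by 0.43 (adjusted p = 0.031).

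**Figure D3:**
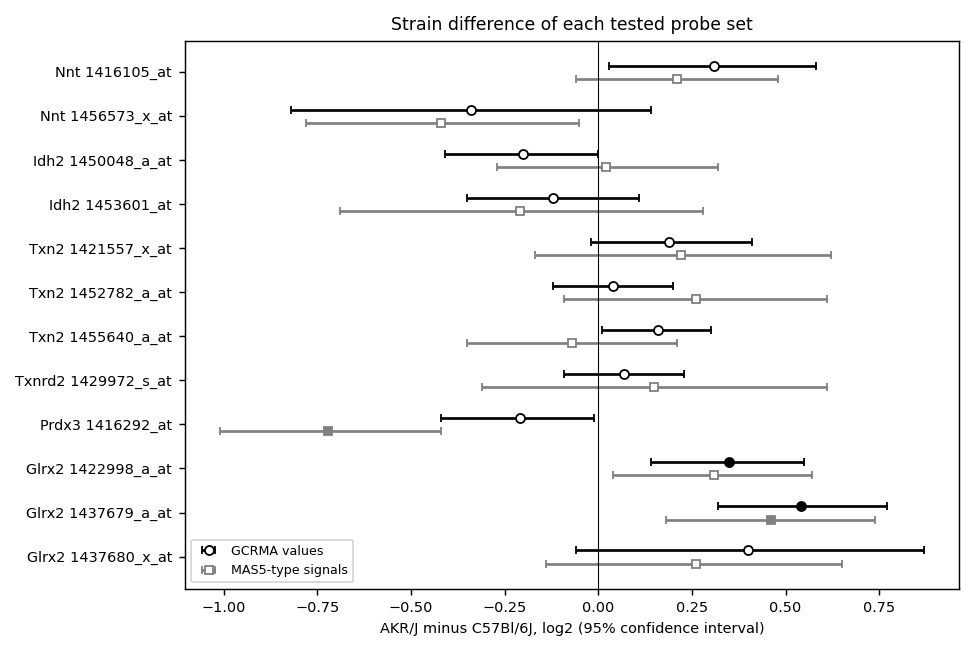
AKR/J minus C57Bl/6J difference on the log2 scale (horizontal axis) with its 95% confidence interval for the 12 tested probe sets; black circles are GCRMA values, grey squares MAS5-type signals, and filled symbols passed the adjusted threshold. With GCRMA values 2 Glrx2 probe sets are filled, and with MAS5-type signals Prdx3 and 1 Glrx2 probe set.

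Because Glrx2 was the only member called with the GCRMA values, the reference sequence before its outermost annotated starts is shown. Glrx2 makes mitochondrial and other forms from different first exons, and the suffix _a_at marks probe sets shared by several transcripts of a gene, so these values do not tell the forms apart. RefSeq (GRCm38.p6, a C57BL/6J assembly) gives 4 start windows for Glrx2 and 1 each for Idh2, Txn2, Txnrd2 and Prdx3, and Nnt has none in that table. The 250 bases before the first and the last Glrx2 start, at chr1:143739099-143739348 and chr1:143740197-143740446 on the plus strand, are given 5′ to 3′, with capitals for an E-box, CACGTG.
Glrx2 first start: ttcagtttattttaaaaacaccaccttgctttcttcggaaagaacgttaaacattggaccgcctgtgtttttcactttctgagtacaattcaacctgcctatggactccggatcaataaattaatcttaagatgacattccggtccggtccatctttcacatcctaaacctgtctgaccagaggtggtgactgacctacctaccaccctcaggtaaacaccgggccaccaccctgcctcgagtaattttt
Glrx2 last start: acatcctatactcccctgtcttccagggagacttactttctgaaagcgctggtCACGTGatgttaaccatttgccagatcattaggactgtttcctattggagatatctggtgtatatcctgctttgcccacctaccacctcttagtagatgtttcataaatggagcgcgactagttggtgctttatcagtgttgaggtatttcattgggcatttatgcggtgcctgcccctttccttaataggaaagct
Only the 250 bases before the start were searched in each window, on both strands. Of the 8 member windows, the antioxidant response element TGACNNNGC was found in 0 (10.2% of all 32851 windows hold it) and CACGTG in 1 (6.02% of all). A match describes letters only, and the AKR/J sequence was not used here.

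Genes around the members were taken from 5 lists, each gene by its brightest tested probe set. Over all 10891 genes, 16.3% were called, 7.79% higher and 8.53% lower in AKR/J. Among 7 further genes of mitochondrial NADPH supply, 2 were lower in AKR/J, 0 were higher and 5 did not pass (median difference -0.37, beside 0.00 over all genes). With the split of the arrays as a term, 4 of these 7 were called. Aldh1l2, a folate enzyme that yields NADPH in mitochondria, averaged 8.99 ± 0.17 for AKR/J against 9.81 ± 0.25 for C57Bl/6J (SD, 4 arrays each) and was 1.77-fold lower in AKR/J (limma adjusted p = 0.00642). Nadk2, the kinase that makes NADP in mitochondria, was 1.48-fold lower (adjusted p = 0.027), a call lost without array 1, 2, 3, 5 or 7 (up to 0.0738) and on MAS5-type signals (0.0726). A dimmer Nadk2 probe set averaged 4.99 in AKR/J and 5.06 in C57Bl/6J. The mitochondrial malic enzyme gene Me3 averaged 5.17 ± 0.08 for AKR/J against 4.14 ± 0.81 for C57Bl/6J without passing (adjusted p = 0.0932).

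Of 14 tested genes of mitochondrial thiol and peroxide defence, 1 was higher in AKR/J, 1 was lower and 12 did not pass (median 0.04). Prdx5 was listed too but had no probe set that names it alone. Gsr, glutathione reductase, was lower in AKR/J by 0.44 on the log2 scale (adjusted p = 0.0114), whereas its other tested probe set averaged 7.12 in AKR/J and 7.08 in C57Bl/6J. Hagh, a glyoxalase that releases glutathione, was 1.31-fold higher in AKR/J (adjusted p = 0.0345), a call lost without array 1, 2, 4, 5, 6 or 8 (up to 0.0915) and on MAS5-type signals (0.116). Its other tested probe sets differed by 0.12 (adjusted p = 0.366) and 0.08 (adjusted p = 0.573). With the mean of its probe sets standing for each gene, neither Gsr (-0.20, adjusted p = 0.0542) nor Hagh (0.19, adjusted p = 0.0589) passed, whereas the sulfiredoxin gene Srxn1 did (0.41, adjusted p = 0.0271). The superoxide dismutase gene Sod2 differed by 0.07 (adjusted p = 0.556), and the glutathione peroxidase gene Gpx1 averaged 11.89 in AKR/J and 11.64 in C57Bl/6J (adjusted p = 0.124).

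Among 14 tested cytosolic counterparts, of 18 listed, 2 were higher in AKR/J, 0 were lower and 12 did not pass (median 0.14). Prdx1, Prdx6, Glrx3 and G6pdx had no tested probe set that names them alone, so these counts leave them out. The cytosolic malic enzyme gene Me1, another NADPH source, was 1.67-fold higher in AKR/J (adjusted p = 0.0135), and its second probe set averaged 6.85 in AKR/J and 6.15 in C57Bl/6J. Prdx2, a cytosolic peroxiredoxin, was 1.35-fold higher (adjusted p = 0.00463) by its brighter probe set. Its dimmer one averaged 3.56 ± 0.37 for AKR/J against 7.28 ± 0.20 for C57Bl/6J, the opposite direction. This dimmer probe set was detected on 1 AKR/J array and on 4 C57Bl/6J arrays. It thus met the filter through the strain in which it is bright, and its call is no separate support. The mean of both probe sets, -1.64, carries the same limit and is not read as a difference of the gene. The direction for Prdx2 therefore depended on the probe set. The cytosolic thioredoxin gene Txn1 (difference 0.26, adjusted p = 0.133) and the thioredoxin reductase gene Txnrd1 (difference -0.06, adjusted p = 0.631) did not pass. Of 6 tested genes of NAD and NADP synthesis, 1 was lower in AKR/J, Nmnat2 (1.38-fold, adjusted p = 0.0447; 0.353 on MAS5-type signals), and 5 did not pass (median -0.26). That call was lost without any single array except array 8 (up to 0.0978).

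Of 20 tested general mitochondrial genes, 0 were higher in AKR/J, 2 were lower and 18 did not pass (median 0.01), a share called of 10%, beside 16.3% of all genes. Those that were lower were Sdha of respiratory complex II (1.32-fold, limma adjusted p = 0.00692) and the mitochondrial chaperone gene Hspa9 (1.39-fold, adjusted p = 0.0113). Tfam, which packages mitochondrial DNA, averaged 8.55 in AKR/J and 8.44 in C57Bl/6J (adjusted p = 0.412), and citrate synthase (Cs) averaged 10.35 in AKR/J and 10.39 in C57Bl/6J (adjusted p = 0.887).

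**Figure D4:**
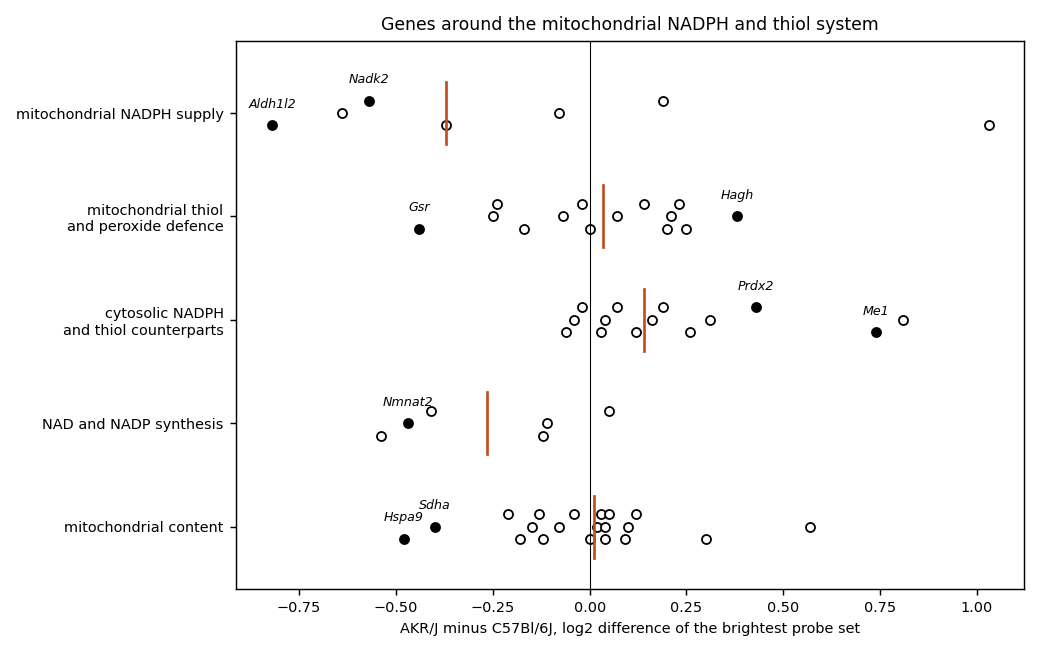
AKR/J minus C57Bl/6J difference on the log2 scale (horizontal axis) of each tested gene in the 5 lists, by its brightest probe set; filled and named points passed the adjusted threshold and vertical lines are list medians. Medians run from -0.37 for mitochondrial NADPH supply to 0.14 for the cytosolic counterparts.

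Markers of other cells moved with strain on these arrays. Of 22 tested acinar markers, 20 were lower in AKR/J and 1, Ctrc, was higher, and the summed intensity of the list was 303017 to 357478 for AKR/J against 510593 to 520046 for C57Bl/6J. All 22 were detected on all 8 arrays. Of 14 macrophage markers, 8 were lower in AKR/J (summed intensity 2466 to 3129 for AKR/J against 4687 to 5779 for C57Bl/6J), and of 12 endothelial markers 4 were higher (5803 to 6771 for AKR/J against 5287 to 5903 for C57Bl/6J). Of 17 beta cell markers, all detected on every array, 3 were lower in AKR/J and 14 did not pass. Their summed intensity was 152895 to 162566 for AKR/J against 147810 to 157018 for C57Bl/6J. All these sums use intensities before the log2 step, so the brightest probe sets weigh most. For beta cells these were Ins2 (difference 0.21) and Iapp (0.18), which did not pass. The endothelial and beta cell sums overlapped between the strains. The share called was 95.5% for acinar, 57.1% for macrophage, 33.3% for endothelial and 17.6% for beta cell markers. Over all genes it was 16.3%, so the beta cell share was close to that of all genes. The part of these cell types in the Glrx2, Prdx3 and Aldh1l2 differences was not tested.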

How the data were processed

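Islet RNA (5 µg per array) of 4 AKR/J and 4 C57Bl/6J pools was grouped by strain from the sample titles. Per the submitters' processing notes the deposited value table holds intensity values made by the authors with GCRMA (linear scale; version not given in the sources used here), here log2-transformed. Per the file headers, each array's own deposited file gives an intensity signal of the MAS5 type with a detection p-value. GCRMA can compress dim signals. Columns matched their array files with r of at least 0.755, and others at most 0.511. Arrays correlated at 0.985 to 0.993 within and 0.966 to 0.975 between strains, and 43.7% to 48.1% of probe sets were detected per array. The number of arrays limits precision, and no batch is labelled.

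Symbols came from GEO's platform annotation. Differences were fitted with limma 3.58.1 in R 4.3.3 (lmFit, eBayes) over all 20772 probe sets detected on at least 4 arrays. In a simulation with 20772 tested probe sets, only 200 in all were given a strain difference, of 1.5-fold, 2-fold or 4-fold. The recovery rate was 43.3% at 1.5-fold and 74.6% at 2-fold. Such rates depend on the share of probe sets that differ, and 14.3% were called in the real data. They therefore do not give the power of the real comparison. Python 3.11.15 with matplotlib 3.10.9 drew the figures. The members, lists and tests were chosen with earlier results of these data known. Named genes were all member probe sets, up to 5 called genes per pathway list, the 3 genes on either side of Nnt and the 5 patterns nearest to it; Me3, Srxn1, Sod2, Gpx1, Txn1, Txnrd1, Tfam and Cs were added after their values were seen. Alternatives were 2 other filters, MAS5-type signals, further quantile normalization, median centring, trend and robust variance, array weights, gene means, each array left out and, added after seeing the data, a split of the arrays as a block. Beside both promoter motifs reported, a nuclear respiratory factor 1 motif was searched in the same windows and is not reported here.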

Additional observations from a re-analysis of the deposited data

Results flagged for a closer look

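In 7 of 32 groups of 4 arrays, 1 array lay far from the other 3 for its group's range, where chance gives about 1 group in 20. For Idh2 1453601_at, AKR/J array 4 read 2.98 beside 3.10 to 3.11, and C57Bl/6J array 6 read 3.47 beside 3.08 to 3.11. For Txn2 1452782_a_at, C57Bl/6J array 7 read 7.18 beside 7.33 to 7.35. For Txnrd2 1429972_s_at, C57Bl/6J array 5 read 4.68, while the other C57Bl/6J arrays read 4.74. For the undetected Txnrd2 probe set 1449097_at, AKR/J array 3 read 5.45 beside 5.10 to 5.15, and C57Bl/6J array 7 read 4.44 beside 5.05 to 5.12. For the undetected 1451936_a_at, C57Bl/6J array 5 read 4.94 beside 4.62 to 4.65. None of these 7 concerns Nnt, Prdx3 or Glrx2.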

How the results depend on the processing

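Of 191 settings of single member probe sets, 178 kept direction and side of the threshold. Most of them concern probe sets that were not called with all arrays, so this count says little about the calls. Of the called probe sets, Glrx2 1437679_a_at passed in 16 of 16 settings and Glrx2 1422998_a_at in 7 of 16. With the MAS5-type signals Idh2 1450048_a_at was at 0.02 (adjusted p = 0.932) and Txn2 1455640_a_at at -0.07 (0.746), both turned in sign, Prdx3 passed at -0.72, and Glrx2 1422998_a_at did not pass at 0.31 (0.132); the cause was not tested. With no filter on dim probe sets, which tests more of them, Glrx2 1422998_a_at did not pass (0.35, adjusted p = 0.061) and 1 member probe set was called. With each array left out in turn, Glrx2 1422998_a_at ran from 0.29 to 0.40, Glrx2 1437680_x_at from 0.29 to 0.59, the member probe sets called from 1 to 2, and all probe sets called lower in AKR/J from 1064 to 1566, against 1599 with all arrays; fewer arrays were fitted there.

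Small list counts moved. With no filter, 1 gene of NADPH supply, 1 of thiol defence, 0 of NAD synthesis, 5 of macrophages and 6 of beta cells were called. With the MAS5-type signals these counts were 1, 1 and 0 for the first 3 lists, 1 for beta cells, 13 for acinar and 1 for endothelial cells. NAD synthesis had 0 calls with further quantile normalization, median centring, and trend and robust variance, and beta cells had 5 with that normalization and 7 with that variance. With gene means thiol defence had 1 call, Srxn1, and neither Gsr nor Hagh passed. Prdx2 of the cytosolic list was then called lower in AKR/J, the opposite of its brightest probe set. That call came from its dimmer probe set, which met the filter through C57Bl/6J. With the split of arrays 1, 2, 5 and 6 against 3, 4, 7 and 8 as a block, added after seeing the data, NADPH supply had 4 calls, and 3678 probe sets in all were called. With single arrays left out, NADPH supply had 1 to 3 calls, thiol defence 1 to 2, NAD synthesis 0 to 1 and macrophages 5 to 8. No paired analysis was possible because the strains share no replicate number in the labels. Probe sets near background, as for Txnrd2, limit what these arrays can show.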
